A study of Mus musculus with 9 samples.

Results

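The GIMAP GTPases were described across 3 sorted mouse immune cell types and 2 organs. The members are all genes whose symbol starts with Gimap and that had a probe set annotated to 1 gene symbol, and 8 such genes were found among 18193 genes on the array. All 8 passed the filter on low intensity and were among the 10916 genes tested. The rule itself reads only the symbol, but the family was chosen by its levels in earlier results of these data, in which Gimap6 was higher in one killer cell type than in dendritic cells. The spleen differences from dendritic cells are therefore given as descriptions.

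The series set out to characterize interferon-producing killer dendritic cells (IKDC) at the molecular level, with Affymetrix expression arrays. IKDC owe their name to traits of 2 other populations, which were sorted beside them: natural killer (NK) cells, which are cytotoxic lymphocytes, and conventional dendritic cells (CDC), which present antigen. The cells were sorted fresh, and the BALB/c donors were naive and 6 to 8 weeks old. Each cell type had 2 spleen arrays, numbered 1 and 2, and 1 array from lymph node (LN). RNA was extracted with TRIzol and RNeasy, and biotinylated cRNA was made from 6 µg. The labels name no sort markers, no treatment and no genetic change in any group. They do not say whether animals were pooled or whether numbered arrays came from separate mice, so p-values measure only the spread between these samples.

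GIMAP proteins (GTPases of the immunity-associated protein family) share a GTP-binding domain related to that of septins and dynamins, and several are anchored to membranes inside the cell. They are best known from lymphocytes, where members affect survival and homeostasis, and rats and mice without a working Gimap5 have few peripheral T cells. The mouse genes lie side by side in a cluster on chromosome 6, in the order Gimap8, Gimap9, Gimap4, Gimap6, Gimap7, Gimap1, Gimap5 and Gimap3, with no other protein-coding gene between them in the RefSeq gene table.

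The promoters were examined because the 8 genes are neighbours with similar profiles on these arrays. RefSeq promoter windows (GRCm38.p6) of 250 bases before a transcript start were found for 8 of 8 genes, with 2 starts for Gimap8 and thus 9 windows. Of these, 4 are printed, each 5′ to 3′ on the strand of the gene: Gimap6 and Gimap5, which hold the ETS core, Gimap3, whose CDC levels were nearest to those of the other cells, and Gimap7, whose brighter probe set had another profile within killer cells. Capitals mark matches to GGAAGT (ETS core), TGTGGT (RUNX core), GGTGTG (T-box core) or CCNCNCCC (KLF and SP box), searched on both strands.
Gimap6, chr6:48708245-48708494, minus strand: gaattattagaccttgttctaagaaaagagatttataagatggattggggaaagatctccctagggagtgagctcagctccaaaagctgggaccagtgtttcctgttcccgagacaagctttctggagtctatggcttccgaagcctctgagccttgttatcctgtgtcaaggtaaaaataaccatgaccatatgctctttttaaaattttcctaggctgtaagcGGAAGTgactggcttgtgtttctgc
Gimap5, chr6:48745947-48746196, plus strand: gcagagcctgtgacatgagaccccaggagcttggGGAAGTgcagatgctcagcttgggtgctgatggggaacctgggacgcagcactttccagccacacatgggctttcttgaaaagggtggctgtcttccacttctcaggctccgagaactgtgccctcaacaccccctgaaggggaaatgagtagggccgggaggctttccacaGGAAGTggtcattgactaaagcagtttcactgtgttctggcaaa
Gimap7, chr6:48718371-48718620, plus strand: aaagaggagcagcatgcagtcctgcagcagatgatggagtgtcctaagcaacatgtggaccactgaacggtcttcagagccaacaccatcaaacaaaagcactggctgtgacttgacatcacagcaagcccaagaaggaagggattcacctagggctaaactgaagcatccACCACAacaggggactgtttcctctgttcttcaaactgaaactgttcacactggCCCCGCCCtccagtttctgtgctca
Gimap3, chr6:48770852-48771101, minus strand: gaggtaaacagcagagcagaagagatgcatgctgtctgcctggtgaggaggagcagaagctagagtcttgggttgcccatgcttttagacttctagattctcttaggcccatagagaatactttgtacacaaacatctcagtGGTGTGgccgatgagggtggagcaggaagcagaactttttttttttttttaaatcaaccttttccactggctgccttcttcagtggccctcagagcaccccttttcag

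None of the 4 motifs was found in all windows. The ETS core was present in 2 of 9 windows, those of Gimap6 and Gimap5, against 19.7% of the 32851 mouse promoter windows of the same length. The RUNX core was present in 3 windows, those of Gimap4, Gimap7 and Gimap1 (14% of all windows). The T-box core was in 3 windows of 2 genes, Gimap8 and Gimap3 (16.3%), where the windows of Gimap8 overlap and share their match. The KLF and SP box was in 5 windows of 4 genes, Gimap8, Gimap9, Gimap4 and Gimap7 (45.9%), and in Gimap9 it matched only within a run of G. The GC content of the windows ranged from 43.6% to 61.2%, with a median of 52.4% over all windows, and 8 of 9 held fewer than 5 CG pairs, where the median over all windows was 6. These are matches of letters and no measurement of binding.

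Levels are log2 intensities after quantile normalization between arrays, and differences are on the same log2 scale with their standard error (SE) from limma. The deposited array medians ranged from 23.4 to 41.3 intensity units. Of 11 NK markers 11 were higher and of 9 CDC markers 8 were lower in spleen IKDC than in spleen CDC (adjusted p under 0.05, limma). Of all genes 4.75% were called higher and 5.60% lower. Itgax, the CDC marker that differed least, read 11.03 and 11.24 in spleen IKDC and 11.89 and 12.37 in spleen CDC. On spleen arrays 1 the level of Xist, an RNA of female cells, lay between 6.02 and 6.36 and that of the Y-linked Eif2s3y between 8.84 and 9.40. On the other 6 arrays Xist lay between 11.43 and 12.49 and Eif2s3y between 2.76 and 4.28. These sex-linked genes set spleen arrays 1 apart from the 3 other spleen arrays and from LN. The 2 spleen arrays of a cell type were therefore not repeats of 1 RNA sample, and their spread includes this difference. The LN IKDC array stood apart in plasmacytoid dendritic cell markers, with Siglech at 10.78 against 4.79 to 6.51 on the other arrays.

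All 8 Gimap genes read lower on CDC arrays than on NK and IKDC arrays. Low here is relative: Gimap3, Gimap4 and Gimap8 lay above the filter level on all 3 CDC arrays, with Gimap4 at 8.64 in LN. No CDC array reached the level of any NK or IKDC array for 8 of 8 members. Over all genes tested, 12.7% had every NK and IKDC array above every CDC array. The gap between the lowest killer cell array and the highest CDC array was 1.64 for Gimap3 and 3.79 to 4.32 for Gimap1, Gimap4, Gimap5, Gimap7 and Gimap8. For Gimap6 and Gimap9 all 3 CDC arrays lay below the filter level of 5.31, near background, and the gap was at least 4.40 and at least 3.98 against that level. Bulk arrays cannot tell fewer cells that express a gene from less RNA per cell, and cross-hybridization between paralogs such as Gimap3 and Gimap5 was not tested.

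**Figure D1:**
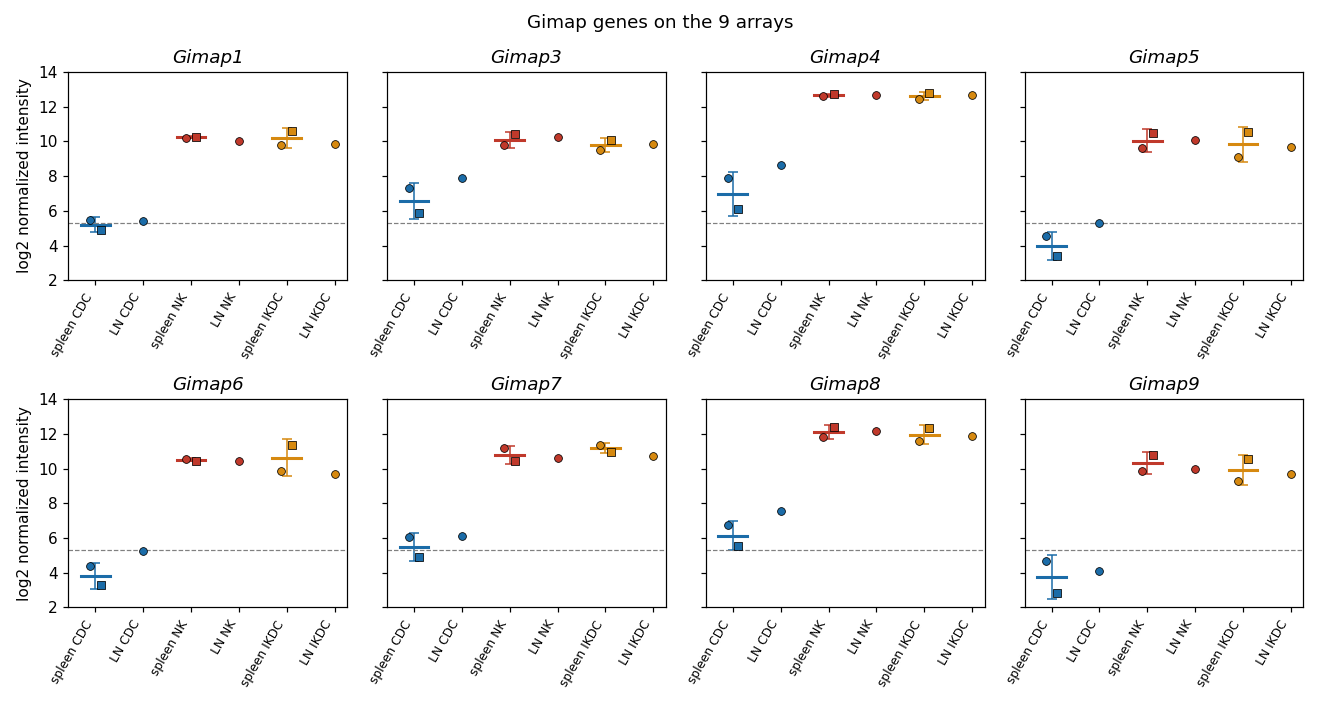
Log2 normalized intensity of each Gimap gene on the 9 arrays, by group. Circles are arrays 1 and lone LN arrays, squares are spleen arrays 2, bars and whiskers are spleen means ± SD (n = 2), and the dashed line is the filter level of 5.31; in every panel the 3 blue CDC points lie below the 6 NK and IKDC points.

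Gimap5 is the member whose loss in rodents depletes peripheral T cells. On CDC arrays its level was 4.57 and 3.41 in spleen arrays 1 and 2 and 5.32 in LN. On NK arrays it was 9.60, 10.50 and 10.08, and on IKDC arrays 9.11, 10.53 and 9.68, in the same order. The 3 CDC arrays were all low, and NK and IKDC overlapped.

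Gimap3 is a close relative of Gimap5, known from differences between mouse strains in the segregation of mitochondrial DNA. Its CDC levels were the least separated from the rest, at 7.31 and 5.85 in spleen and 7.86 in LN. NK arrays read 9.77, 10.40 and 10.26, and IKDC arrays read 9.50, 10.07 and 9.83. The LN CDC array was the highest of the CDC arrays, and still below all others.

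Gimap6 encodes a protein that binds a GABARAP-type autophagy protein. Its deposited intensities were 13.1 and 3.3 on the spleen CDC arrays and 39.2 on the LN CDC array, against 1626, 1418 and 1315 on NK arrays and 925.5, 2235 and 794 on IKDC arrays. The normalized levels were 4.36, 3.30 and 5.23 in CDC, 10.57, 10.46 and 10.42 in NK, and 9.88, 11.38 and 9.70 in IKDC. IKDC held both the highest and the lowest of the killer cell arrays, and all 3 CDC arrays lay below the filter level.

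Gimap1, needed for mature T and B cells in mice, read 5.49, 4.91 and 5.43 on CDC arrays, 10.19, 10.28 and 10.01 on NK arrays and 9.79, 10.60 and 9.84 on IKDC arrays. Gimap4, linked to the pace of T cell death, read 7.88, 6.09 and 8.64 in CDC, 12.60, 12.73 and 12.65 in NK, and 12.44, 12.78 and 12.69 in IKDC. In both genes the NK arrays differed less among themselves than the CDC arrays did. Among the 6 killer cell arrays the spread from lowest to highest was smallest for Gimap4, at 0.34, and largest for Gimap6, at 1.68.

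Gimap8 encodes a larger protein with several GTP-binding domains. It read 6.73, 5.55 and 7.56 in CDC, 11.83, 12.38 and 12.15 in NK, and 11.56, 12.34 and 11.86 in IKDC. Gimap9 read 4.67, 2.85 and 4.11 in CDC, 9.87, 10.77 and 9.999 in NK, and 9.29, 10.53 and 9.69 in IKDC. Like Gimap1, Gimap3, Gimap4 and Gimap5, both read highest on spleen array 2 in NK and in IKDC and lowest on it in CDC. For Gimap5 and Gimap9 the spleen CDC readings lay below the filter level.

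Gimap7 encodes a GTPase that acts as a dimer. Its levels were 6.08, 4.94 and 6.12 in CDC, 11.17, 10.44 and 10.63 in NK, and 11.37, 10.97 and 10.74 in IKDC. On this probe set spleen array 1 was higher than array 2 in all 3 cell types, while on its dimmer probe set array 2 was higher in NK, by 0.26, and in IKDC, by 0.66. For all members the CDC groups had the 2 lowest means, with spleen CDC the lowest in 8 of 8, while the highest mean was in LN NK for 3 members, spleen NK for 2, spleen IKDC for 2 and LN IKDC for 1. The 4 killer cell groups of a gene did not differ beyond their spread by any test given here.

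Spleen IKDC exceeded spleen CDC by a median of 5.74 over the 8 members, and spleen NK by a median of 5.83. In 4 members the mean of spleen CDC lay below the filter level, and with these set at that level the medians were 5.10 and 5.11. Among the 4 measured on both sides, the IKDC difference ran from 3.21 ± 0.52 (SE) for Gimap3 to 5.81 ± 0.47 for Gimap8, and the NK difference from 3.51 ± 0.52 for Gimap3 to 5.97 ± 0.47 for Gimap8. Medians over all genes tested were 0.04 and 0.06. All 8 members were called higher in either contrast, where 4.75% (IKDC) and 6.54% (NK) of all genes were called higher. These contrasts contain the results behind the choice of the family, and they share the CDC arrays, so the counts add nothing to that choice. Without spleen CDC array 2 the IKDC count was 7 of 8, and without spleen NK array 2 the NK count was 7 of 8, Gimap3 being the member lost each time.

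As folds, spleen IKDC over spleen CDC was 9.24 for Gimap3, 49.4 for Gimap4, 50.7 for Gimap7 and 56.2 for Gimap8. For the other 4 the fold is a lower bound taken against the filter level. It was at least 29.5-fold for Gimap1, at least 22.8-fold for Gimap5, at least 40.1-fold for Gimap6 and at least 24.3-fold for Gimap9. The number of CDC arrays below that level was 3 for Gimap6 and Gimap9, 2 for Gimap5, 1 for Gimap1 and Gimap7, and 0 for Gimap3, Gimap4 and Gimap8.

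The lymph node arrays did not enter the spleen differences, but the family was proposed with the whole series known and the spread comes from the spleen pairs, so the LN calls are no independent support. LN IKDC was called higher than LN CDC in 7 of 8 members, with 2.09% of all genes called higher, and LN NK was called higher than LN CDC in 7 of 8, with 2.93% of all genes called higher. Each LN group is a lone array, and the test lends it the spread of the spleen pairs. The median difference over members was 4.39 for IKDC and 4.58 for NK, against 0.06 and 0.02 over all genes. The same LN CDC array stands in both contrasts.

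Gimap6 and Gimap9 lay below the filter level on the LN CDC array. Against that level Gimap9 was at least 20.8-fold higher in LN IKDC and at least 25.8-fold higher in LN NK (limma adjusted p = 0.0367 and 0.0237). Gimap6 was at least 21.1-fold and at least 34.6-fold higher (adjusted p = 0.0367 and 0.0176). Gimap1 was the most precisely measured, at 4.41 ± 0.51 (SE) in IKDC (limma adjusted p = 0.0173) and 4.57 ± 0.51 in NK (adjusted p = 0.00913). Gimap7 differed by 4.62 ± 0.64 and 4.51 ± 0.64, Gimap8 by 4.30 ± 0.67 and 4.59 ± 0.67, and Gimap4 by 4.05 ± 0.77 and 4.01 ± 0.77. Gimap5 lay at the threshold in IKDC, at 4.36 ± 0.87 with an adjusted p of 0.0497, and at 4.76 ± 0.87 in NK with 0.0303. Gimap3 missed it in both, at 1.96 ± 0.74 (adjusted p = 0.244) and 2.39 ± 0.74 (adjusted p = 0.135), with 95% intervals of 0.19 to 3.74 and 0.62 to 4.17.

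The LN calls rest on a spread estimated from few spleen arrays. Leaving out a spleen array does not move an LN difference, but the IKDC count was 4 without spleen CDC array 1 or spleen CDC array 2 and 2 without spleen NK array 1 or spleen NK array 2. The NK count was 4 without spleen NK array 2. Without the filter on low intensity the IKDC count was 3. The difference from CDC was positive for each member in both organs under all alternatives tried, 512 of 512 values, from 1.78 to 7.55.

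There were 11 Gimap probe sets, and Gimap4, Gimap6 and Gimap7 had 2 each, of which the brighter was used above. The dimmer probe set of Gimap4 gave spleen differences from CDC of 5.10 in IKDC and 4.96 in NK, and LN differences of 4.97 and 5.12. Unlike the brighter one, it placed the LN CDC array at 6.83, near the spleen CDC arrays at 6.69 and 6.33. The dimmer probe set of Gimap6 differed from CDC by 4.35 and 5.21 in spleen, and it was lower on arrays 2 of NK and IKDC, at 8.37 and 7.55, than on arrays 1, at 9.58 and 8.69. The probe sets of Gimap6 thus disagree on IKDC against NK in arrays 2, at 0.92 for the brighter and -0.82 for the dimmer. That of Gimap7 differed by 3.41 and 2.51 in spleen and by 4.30 and 3.69 in LN, and its probe sets disagree on spleen array 2 against array 1 in NK and IKDC. All 3 dimmer probe sets were higher on every killer cell array than on every CDC array.

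IKDC and NK did not differ detectably in any member. Over both organs, in an additive model of cell type and organ, 0 of 8 members passed, and 0% of all genes did (limma, 757 of 10916 genes at an unadjusted p under 0.05 and none of the members). The median difference, IKDC minus NK, was -0.18. It was negative in 7 of 8 members, and under the alternatives 5 of those 7 turned sign at least once. The CDC marker Itgax read 11.32 on spleen NK array 1, near the IKDC arrays at 10.88 to 11.24. On the other NK arrays it read 7.27 and 8.19. Dpp4 and Flt3, the CDC markers with the largest differences from killer cells, read on spleen NK array 1 between the other NK arrays. Batf3 and Cd86, next in that order, read highest on it. Batf3 was at 5.70 against 4.90 and 4.89, and Cd86 at 6.48 against 6.27 and 6.28. Without spleen NK array 1 the median of IKDC minus NK was -0.18. The part of CDC in that array was not tested.

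Gimap9 had the lowest value, -0.38 with a 95% interval of -1.52 to 0.76. Gimap7 had the highest, 0.28 with an interval of -0.54 to 1.10. The tightest interval was that of Gimap1, at -0.08 with bounds of -0.71 and 0.55. The widest was that of Gimap6, at -0.16 with bounds of -1.38 and 1.06. These intervals leave room for differences in either direction, and they do not show that the cell types are alike.

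**Figure D2:**
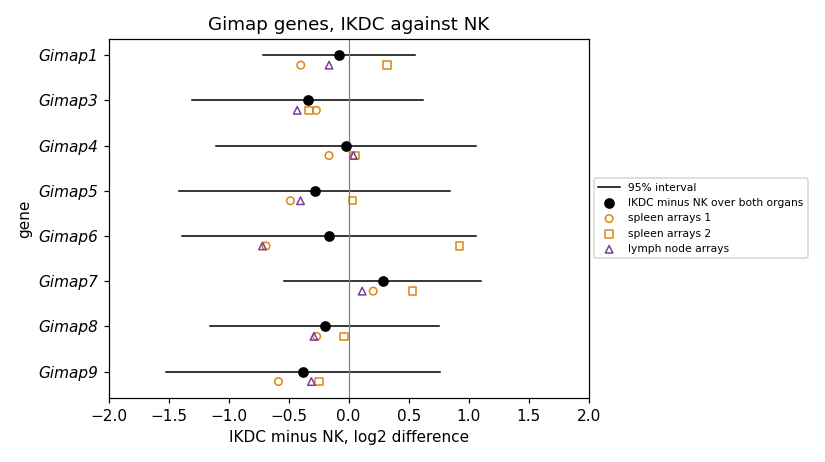
Difference of IKDC minus NK for each Gimap gene, log2 scale. Filled points and lines are the estimate over both organs with its 95% interval, and open symbols are the differences of single arrays; every interval crosses 0, and Gimap7 is the only gene with all 3 open symbols to the right of 0.

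In spleen alone the median of IKDC minus NK was -0.10, from -0.41 for Gimap9 to 0.37 for Gimap7, with 0 of 8 called and 0% of all genes (598 genes at an unadjusted p under 0.05, no member among them). In LN it was -0.30, from -0.72 for Gimap6 to 0.11 for Gimap7, with 0 of 8 called and 0.055% of all genes. Between arrays of the same number, the median was -0.33 for spleen arrays 1 and 0.04 for spleen arrays 2. Gimap7 was higher in IKDC in all 3 of these array pairs, by 0.20, 0.53 and 0.11 on its brighter probe set and by 0.70, 1.10 and 0.60 on its dimmer one. Gimap3, Gimap8 and Gimap9 were lower in IKDC in all 3.

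Within a cell type, the organs differed less than NK or IKDC differed from CDC. In CDC the LN array was higher than the mean of the spleen arrays for 8 of 8 members, by a median of 1.31, from 0.23 ± 0.44 (SE) for Gimap1 to 1.66 ± 0.67 for Gimap4. None was called (limma, 0.0275% of all genes called in either direction), and 2 members, Gimap4 and Gimap8, had an unadjusted p under 0.05, with adjusted p of 0.384 and 0.386. On the dimmer probe set of Gimap4 the LN CDC array was nearer to spleen, at 6.83 against 6.69 and 6.33. The median over members depends on which spleen array is used: it was 1.92 against array 2 alone, positive in 8 of 8, and 0.65 against array 1 alone, positive in 6 of 8. With an offset of 50 intensity units before the log2 the median was 0.47. By its Xist level the LN CDC array resembled spleen CDC array 2, the one it differs from more. For Gimap6 and Gimap9 all CDC arrays lay below the filter level, so an organ difference in CDC was not measurable for them. In Gimap1 and Gimap5 the mean of spleen CDC lay below it and LN CDC just above, at 5.43 and 5.32. The size of their organ difference was thus not measurable either. The count of 8 and the median include these 4 members.

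LN NK minus spleen NK had a median of -0.06 over members and LN IKDC minus spleen IKDC a median of -0.18, with 0 of 8 called and 0% of all genes in either, and no member at an unadjusted p under 0.05. The lowest of these values was -0.93 ± 0.69 (SE) for Gimap6 in IKDC. Over all cell types together, LN minus spleen had a median of 0.27, with 0 of 8 called against 0.806% of all genes. The organ difference in NK minus that in CDC had a median of -1.20, and that in IKDC minus that in CDC a median of -1.36, negative in 8 of 8 members each, and no member passed the test of this difference (0% of all genes, 0 members at an unadjusted p under 0.05). Without spleen CDC array 2 these medians became -0.55 and -0.60, and without spleen CDC array 1 -1.86 and -2.01, as NK minus CDC and IKDC minus CDC. With an offset of 50 they were -0.53 and -0.83. The CDC readings below the filter level enter these medians too.

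The spleen arrays of a cell type differed in a direction that depended on the cell type. In CDC, array 2 was lower than array 1 for 8 of 8 members, with a median of -1.17 (52.8% of all genes were lower). For Gimap5, Gimap6 and Gimap9 both readings lay below the filter level, where a difference is not measurable, and the other 5 were all lower. Of these, 3 had both readings at or above that level, Gimap3 at -1.46, Gimap4 at -1.79 and Gimap8 at -1.18. The dimmer probe set of Gimap4 fell less, from 6.69 on array 1 to 6.33 on array 2. Gimap1 and Gimap7 fell below the filter level on array 2, so the size of their difference was not measurable. In IKDC array 2 was higher for 7 of 8 members, with a median of 0.80 (51.8% of all genes were higher). The highest value was 1.5 for Gimap6, whose dimmer probe set was lower on array 2, at 7.55 against 8.69. In NK array 2 was higher for 6 of 8, with a median of 0.34 (51.7% of all genes were higher). Gimap7 was lower on array 2 in all 3 cell types on its brighter probe set and in CDC alone on its dimmer one. The difference from CDC was thus larger between arrays 2 than between arrays 1, with medians of 6.75 against 4.59 for IKDC and 6.74 against 5.06 for NK. The CDC readings below the filter level, of Gimap1 and Gimap7 as well as of Gimap5, Gimap6 and Gimap9, enter these medians as read. With 1 array for each number these differences have no replicate. Other lists moved with the array number too. The summed level of 9 proliferation markers was 12.69, 12.52 and 13.59 on arrays 1 of CDC, NK and IKDC and 11.11, 10.64 and 11.12 on arrays 2. That of 10 macrophage markers was 9.49 and 11.16 on arrays 1 of NK and IKDC and 12.49 and 12.83 on arrays 2, and 13.61 and 13.71 in CDC. Their part in the array differences of the Gimap genes was not tested.

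**Figure D3:**
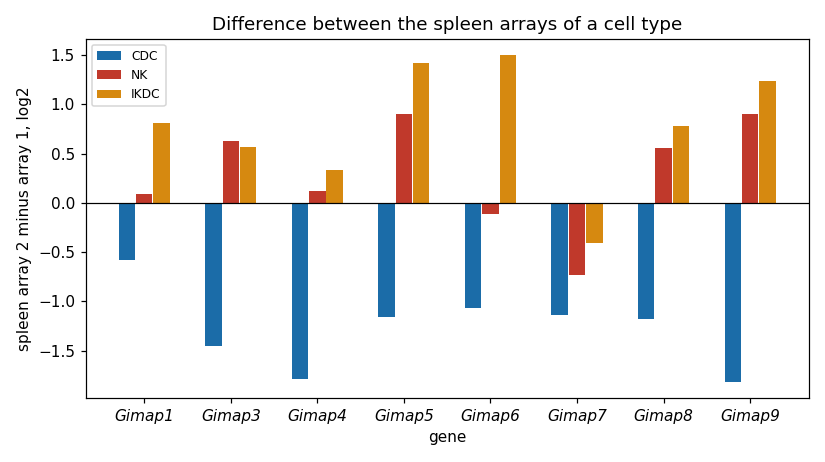
Spleen array 2 minus spleen array 1 for each Gimap gene, in log2 units, by cell type. Each gene is shown by its brighter probe set. The CDC bars are below 0 for all 8 genes, 3 of them (Gimap5, Gimap6 and Gimap9) between readings below the filter level. Gimap1 and Gimap7 lie below that level on CDC array 2. Gimap7 is the only gene with its NK and IKDC bars both below 0.

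Most NK markers moved the same way across CDC arrays. The summed level of the 11 NK markers was 11.33 on spleen CDC array 1, 10.38 on array 2 and 11.39 on the LN CDC array, against 15.09 to 15.71 on killer cell arrays. Of these markers, 10 of 11 were higher on spleen CDC array 1 than on array 2, and 9 of 11 were higher on the LN CDC array than on spleen CDC array 2. The NK receptor Ncr1 read 5.94, 5.06 and 6.22 in that order of arrays, and the granule protease Gzmb read 6.78, 4.70 and 6.08. Prf1 (perforin) was lowest in LN, at 6.20, 5.99 and 5.66. Their part in the Gimap levels of CDC arrays was not tested.

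Over all 9 arrays the members followed each other closely, since each separates CDC from the rest. Pearson's r was at least 0.943 in the 28 pairs of members, a description over 9 arrays that share that split. Within the 6 killer cell arrays, r ranged from -0.892 to 0.997. It was below 0 in 7 pairs, all 7 of which hold Gimap7. The r of Gimap7 with the mean of the other members was -0.58 there, against 0.70 to 0.93 for the remaining genes and -0.014 for the dimmer probe set of Gimap7. These 6 arrays include the spleen arrays 1 and 2 of both cell types, and the part of the array number in these values was not tested.

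The genes outside the family with the profile most like its mean were Prkcq at r = 0.998, Stk26 at 0.997, Eomes at 0.996, Spry2 at 0.995, Ncr1 at 0.995, Ablim1 at 0.994, Klrc1 at 0.993, Gzma at 0.993, Sh2d1a at 0.992 and Msi1 at 0.992, each over 9 arrays. Eomes is a T-box transcription factor of NK cells, Ncr1 and Klrc1 are NK receptors, and Prkcq is a kinase of antigen receptor signalling. Prkcq read 4.83, 3.44 and 5.67 on CDC arrays, 10.77, 11.16 and 10.64 on NK arrays and 9.93, 11.11 and 10.10 on IKDC arrays. It thus shares with all members except Gimap6 and Gimap7 the low spleen CDC array 2 and the high arrays 2 of NK and IKDC. Its spleen CDC readings lay below the filter level.

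The genes next to the cluster were read in the same way. Of the 10 tested neighbours, 5 on each side, 0 were called higher in spleen IKDC or spleen NK than in spleen CDC, where 4.75% and 6.54% of all genes were, and 2 were called lower in IKDC and 3 in NK, where 5.60% and 6.97% of all genes were. At these shares a count of 0 among 10 is near the background. Tmem176b, the next coding gene beyond Gimap3, and Tmem176a beside it are membrane proteins of dendritic cells and other myeloid cells. Tmem176b read 11.45, 11.88 and 11.99 in CDC, 7.74, 8.26 and 10.50 in NK, and 9.36, 7.06 and 9.05 in IKDC. CDC arrays were the highest, opposite to the adjoining Gimap genes.

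**Figure D4:**
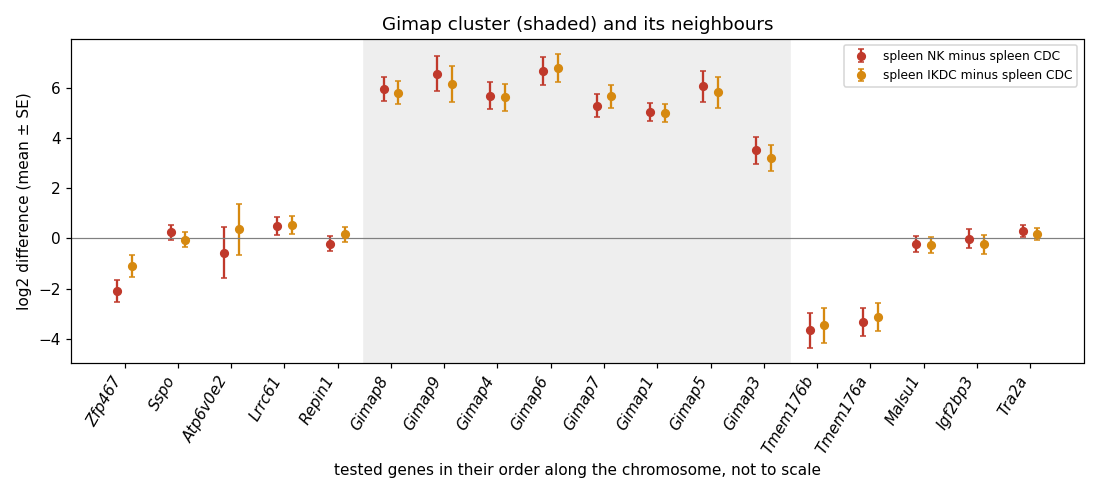
Difference from spleen CDC of spleen NK and spleen IKDC (log2, ± SE from limma) for the Gimap genes, shaded, and the 5 nearest tested genes on either side, in chromosome order and not to scale. All 8 shaded genes lie above 3, and Tmem176b and Tmem176a next to them lie below -3. The points of Gimap1, Gimap5, Gimap6 and Gimap9 use spleen CDC means below the filter level, where the text gives lower bounds.

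Tmem176b differed from spleen CDC by -3.46 ± 0.70 (SE) in spleen IKDC (limma adjusted p = 0.0283) and by -3.67 ± 0.70 in spleen NK (adjusted p = 0.0182). Tmem176a differed by -3.13 ± 0.54 (adjusted p = 0.0158) and -3.32 ± 0.54 (adjusted p = 0.0102). Zfp467, on the other side with 7 coding genes between, differed in NK by -2.10 ± 0.44 (adjusted p = 0.025). Repin1, with 1 coding gene between it and Gimap8, differed by 0.16 ± 0.31 and -0.21 ± 0.31 in IKDC and NK. Sspo, Atp6v0e2, Lrrc61, Malsu1, Igf2bp3 and Tra2a were not called either. No neighbour was called in LN. Without spleen CDC array 1 or array 2 no neighbour was called in IKDC, and without spleen NK array 1 or array 2 only 1 was. In NK none was called without spleen CDC array 2 or spleen NK array 1, and 1 without spleen CDC array 1 or spleen NK array 2.

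Genes linked to GIMAP biology were counted against the same shares of all genes, 4.75% higher and 5.60% lower in spleen IKDC than in spleen CDC, and 6.54% and 6.97% in spleen NK. BCL2-family proteins and autophagy factors include partners ascribed to GIMAP proteins, but not every gene of this list encodes one. Of its 21 tested genes, 2 were higher and 1 lower in spleen IKDC than in spleen CDC, and 4 were higher and 1 lower in spleen NK. The median over the list was 0.32 and 0.36. Bcl2, which prevents apoptosis, read 7.22, 7.20 and 6.84 in CDC, 10.43, 10.03 and 10.63 in NK, and 9.67, 10.28 and 10.42 in IKDC, a difference of 2.77 ± 0.30 (SE) for spleen IKDC (limma adjusted p = 0.00312). Bcl2l11 (BIM), which promotes apoptosis, was higher too, by 2.37 ± 0.35 (adjusted p = 0.0093), and Pmaip1 (NOXA), also pro-apoptotic, differed by -4.43 ± 0.51 (adjusted p = 0.00365). The NK count was 3 without spleen CDC array 2 and 2 without spleen NK array 2, and Bcl2l11 lost its IKDC call without spleen CDC array 1 (adjusted p = 0.0546).

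Among 15 genes of lymphocyte quiescence and homing, 6 were higher and 0 lower in spleen IKDC (all genes 4.75% and 5.60%) as in spleen NK (6.54% and 6.97%), with medians of 1.24 and 0.96. They include S1pr5, a receptor for exit of NK cells from tissues, at 6.54 ± 0.92 (SE) in IKDC, the transcription factors Lef1 at 2.90 ± 0.49 and Bach2 at 2.49 ± 0.31, and the cytokine receptor gene Il7r at 2.83 ± 0.47. The IKDC count fell to 1 without spleen CDC array 1 or array 2. The NK count was 2 without spleen CDC array 2 or spleen NK array 2 and 3 without spleen NK array 1.

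Other GTP-binding families are given beside the same shares, 4.75% of all genes higher in spleen IKDC and 6.54% in spleen NK. Of 9 tested septins of 12 on the array, 2 were higher in spleen IKDC, Septin4 by 3.75 ± 0.33 (SE) and Septin11 by 2.70 ± 0.28, and in spleen NK 3 were higher and 1, Septin3, was lower. The NK count of septins, both directions together, was 2 without any 1 of the spleen CDC or NK arrays. Of 11 tested interferon-inducible GTPases of the IRG and GBP families, of 12 on the array, 5 were higher in either contrast, among them Gbp7 by 3.12 ± 0.26 in IKDC, Gbp6 by 2.95 ± 0.36, Gbp3 by 2.63 ± 0.29 and Ifi47 by 1.70 ± 0.23. That count was 3 without spleen CDC array 2 in either contrast, and also 3 without spleen CDC array 1 in IKDC and without spleen NK array 1 or array 2 in NK. Between IKDC and NK over both organs 0 genes of these 4 lists were called.

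T cells are the other lymphocytes in which these genes are well known, so T cell markers were read on the same arrays. The summed level of the 13 T cell markers was 10.05 to 10.51 on CDC arrays, 11.16 to 12.16 on NK arrays and 11.33 to 11.66 on IKDC arrays. Of 10 tested markers, 5 were higher and 2 lower in spleen IKDC than in spleen CDC (all genes 4.75% and 5.60%). The same counts held for spleen NK (all genes 6.54% and 6.97%). Those higher include Cd28, Lat, Cd3d and Cd3g. Cd4 read 8.81 and 9.90 on spleen CDC arrays and 4.13 to 5.09 on spleen killer cell arrays, and Cd5 and Cd8a read lower there too. Cd3e, a defining component of the T cell receptor complex, lay between 4.19 and 5.85 on 5 of the 6 killer cell arrays and at 8.15 on the LN NK array. Gimap levels on that LN NK array differed from the spleen NK mean by -0.33 (Gimap9) to 0.17 (Gimap3). The part of T cells in the Gimap levels was not tested.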

How the data were processed

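Signal intensity per probe set was deposited on a linear scale for 9 arrays, and the mean of every array without its highest and lowest 2% of values was 150.001 units as deposited, so the arrays had been scaled; software and build are not given in the sources used here. After leaving out 64 control probe sets, an offset of 6.49 units (the 20th percentile of all values) was added, log2 was taken and arrays were quantile normalized. Of 45101 probe sets, 34945 carried 1 symbol in the platform annotation, 932 several and 9160 none. Each gene was represented by its brightest probe set, and genes below the 40th percentile of the mean (5.31) were left out.

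Tests used limma 3.58.1 in R 4.3.3 (lmFit, eBayes with trend) on 6 groups, with 3 residual degrees of freedom, all from the spleen pairs, or on an additive model with 5. Two-sided p-values were adjusted over all genes by Benjamini and Hochberg, with a threshold of 0.05. The script was checked on simulated data. The members and the lists were chosen with earlier results of these data known. Named outside the family were the 10 genes most like its mean profile, 5 tested neighbours on each side and up to 4 genes of each list with the largest difference between killer cells and CDC. Xist, Eif2s3y, Itgax, Cd3e, Cd4, Cd5 and Cd8a were named outside this rule, with their values seen. Motifs were counted with Python 3.11.15 and plots drawn with matplotlib 3.10.9.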

Additional observations from a re-analysis of the deposited data

How the results depend on the processing

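In 14 comparisons, the count of members called stayed within 1.5 times its value in 210 of 216 repeats under 17 alternatives (no normalization beyond the authors' own, alignment of the arrays at their 75th percentile, offsets of 16 and 50 units, no filter or the 60th percentile, the mean of probe sets, no trend, robust spread, spleen arrays only with and without the block, and leaving out each spleen array). Of these, 152 belong to the 10 comparisons in which no member was called, where a count of 0 says little about stability; in the other 4 it was 58 of 64. The exceptions were in lymph node. The IKDC count against CDC was 3 with no filter, and leaving out a spleen array gave 2 to 7; for NK against CDC this gave 4 to 7. Of 752 member differences, 703 kept their direction and call, 39 lost the call and 10 changed sign. Gimap4, IKDC minus NK over organs, was 0.0089 with the mean of probe sets. Leaving out a spleen array, that difference ranged from -0.21 to 0.12 for Gimap4, -0.34 to 0.098 for Gimap1, -0.77 to 0.029 for Gimap5, -0.76 to 0.057 for Gimap6 and -0.51 to 0.029 for Gimap8. LN CDC minus spleen CDC ranged from -0.059 to 0.53 for Gimap1 and from -0.56 to 1.26 for Gimap9. With an offset of 50, which compresses low levels, the medians against CDC were 4.39 (spleen IKDC), 4.41 (spleen NK), 3.65 (LN IKDC) and 3.85 (LN NK), and that of LN CDC minus spleen CDC was 0.47.

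The labels do not say that an array number marks a shared sort, so no pairing was assumed. Across genes, deviations of equally numbered spleen arrays correlated at 0.412 (CDC and NK), 0.529 (CDC and IKDC) and 0.485 (NK and IKDC). With the replicate number as a block, members called were again 8 for spleen IKDC and 8 for spleen NK against CDC, and 0 for IKDC against NK, with medians of 5.74, 5.83 and -0.10. The block moved the count of BCL2-family and autophagy genes called in spleen IKDC from 3 to 5. With the filter at the 60th percentile 1 of 7 tested septins was called there, in place of 2 of 9. Signal near background limits the level of Gimap5, Gimap6 and Gimap9 on CDC arrays, and that of Gimap1 and Gimap7 on spleen CDC array 2.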
